A study of Xenopus laevis with 7 samples.

Results

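In 187 of the 7746 Xenopus laevis genes measured as an L and an S transcript, the reads of the early gastrula lay almost wholly on one copy. The pairs were chosen by level. Over 7 RNA sequencing libraries the mean of one copy was at least 10 RPKM (reads per kilobase of transcript, scaled to library depth) and the mean of the other was below 0.5 RPKM. Of the 7746 pairs, 2414 had a copy of at least 10 RPKM and could meet the rule. The copy below 0.5 RPKM is called silent here, by its deposited level alone. The parts of read placement and of the gene models in the split were not tested. The levels chose the pairs, so they are given as a description with no test. Xenopus laevis, the African clawed frog, is allotetraploid: it descends from a cross between diploid species, and its chromosomes still fall into a longer (L) and a shorter (S) set. Genes kept on both sets are called homeologs. After such a cross a copy can be kept, take on its own pattern, decay or be lost, and the S set is known to have lost more genes than the L set.

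Polyadenylated RNA was sequenced from wild-type embryos at stage 10.5, the early gastrula, in 3 dorsal lip, 3 ventral lip and 1 whole embryo libraries. The dorsal lip of the blastopore holds the Spemann organizer, the signalling centre of the embryo, and the ventral lip lies opposite it. Lips were cut out in Barth's saline and all animals came from a commercial supplier. Per the file headers, the numbers of the libraries mark experiments. Experiment 1 gave a dorsal lip, a ventral lip and the whole embryos, and experiments 2 and 3 gave a dorsal and a ventral lip each and shared a sequencing lane. The labels do not say that experiments used separate clutches, and the p-values then rest on a spread among libraries that may be only technical.

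The libraries held between 26438048 and 37999134 reads on transcripts, as recovered from RPKM. The mapped totals behind RPKM were 27083637 to 38903417, so that 1 read over 1 kb was worth 0.0257 to 0.0369 RPKM. Read numbers of single transcripts were recovered from RPKM as the smallest that fit. For transcripts read in few libraries they are lower bounds. Defining markers went with the labels. The 15 organizer transcripts found by symbol summed to between 861 and 1150 RPKM in dorsal lips. In ventral lips they summed to 76.9 RPKM in experiment 1, and to 18.6 and 24.9 RPKM in experiments 2 and 3. The 10 ventral lip transcripts summed to 32.3 to 45.4 RPKM in dorsal lips, against 259 to 510 RPKM in ventral lips. How reads that fit both copies of a gene were counted is not given in the sources used here. Where the copies are nearly identical, reads of a silent copy could have been placed on its partner or the reverse, and how much this adds to the split between copies was not tested. In tissue samples, fewer cells of a type and less RNA per cell cannot be told apart.

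The silent copy was the S copy in 116 of the 187 pairs (62.0%) and the L copy in 71 (38.0%). In all, 2414 pairs had a copy of at least 10 RPKM, and the 187 are 7.75% of them. In the other 2227, where the lower copy still had 0.5 RPKM or more, the lower copy was S in 1230 (55.2%) and L in 997 (44.8%). Over all 2414 pairs the S copy was the lower in 55.8%. The expressed copy of the 187 had a mean between 10.002 and 176.5 RPKM with a median of 19.97 RPKM, and the higher copy of the 2227 other pairs had a median of 28.8 RPKM. Where S was silent, the expressed L copies had a median of 21.1 RPKM, and where L was silent the expressed S copies had a median of 17.9 RPKM. The silent copies had a median of 0.0385 RPKM, which was a median of 0.183% and at most 3.56% of the summed RPKM of the pair. Summed over the 187 genes, silent copies came to 16.6 to 21.6 RPKM per library and expressed copies to 5916 to 6269 RPKM.

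**Figure D1:**
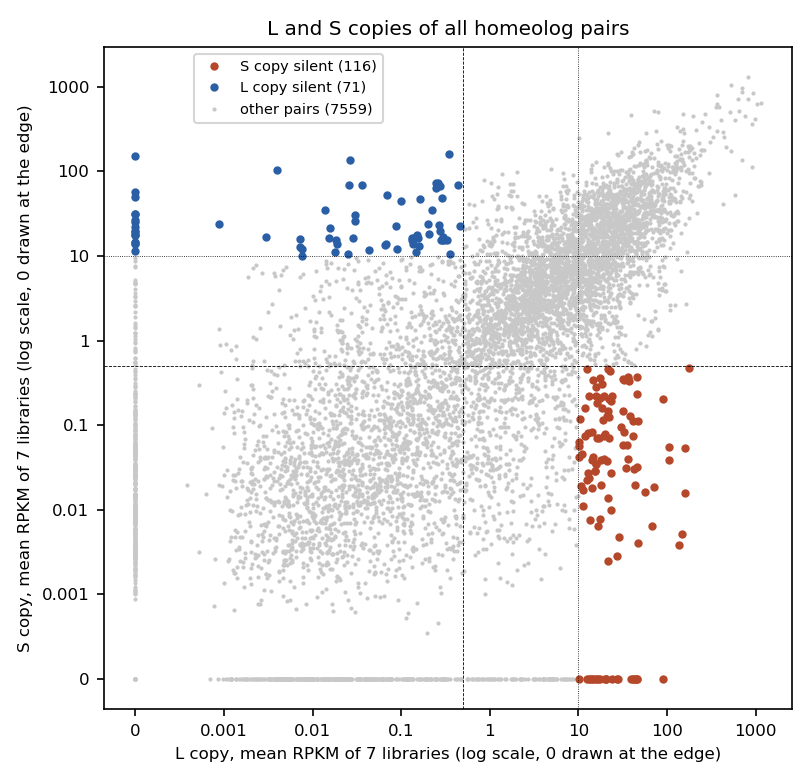
Mean RPKM over 7 libraries of the L copy (x axis) and the S copy (y axis) of 7746 homeolog pairs, both on log scales with 0 drawn at the edge. Dashed lines mark 0.5 RPKM and dotted lines 10 RPKM. The 116 pairs with a silent S copy lie at the lower right and the 71 with a silent L copy at the upper left, and most other pairs with an abundant copy lie near the diagonal.

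The 12 most abundant genes of this kind had mixed roles, with nudt21 the highest. NUDT21 is the small subunit of cleavage factor I, which helps to choose where messenger RNAs are cut and polyadenylated. Its silent copy nudt21.S had 0.441, 0.676 and 0.243 RPKM in dorsal lips, 0.657, 0.394 and 0.285 RPKM in ventral lips and 0.595 RPKM in the whole embryo. Its expressed copy nudt21.L had 201, 162 and 175 RPKM in dorsal lips, 189, 159.8 and 165 RPKM in ventral lips and 183 RPKM in the whole embryo. No library of one copy came near any of the other, and the lips of experiment 1 had more of nudt21.L than any other lip.

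The splicing factor transcript LOC734097-like.S, matched to SF3A1 of the U2 particle, had 3 to 7 reads and 0.0401 to 0.0770 RPKM per library. Its expressed partner LOC734097-like.L lay between 155 and 169.8 RPKM in all 7 libraries, the steadiest of the 187. The branch point binding protein SF1 had a silent L copy with 0, 0.0333 and 0.0167 RPKM in dorsal lips, 0.0453, 0.0509 and 0.0393 RPKM in ventral lips and 0 in the whole embryo. Its copy sf1.S had 148, 131 and 151 RPKM in dorsal lips, 139, 125 and 130.0 RPKM in ventral lips and 135 RPKM in the whole embryo. EXOSC10, a nuclease of the nuclear exosome that trims ribosomal and other RNA, had 1 read of exosc10.S in dorsal lip 3 and 1 in the whole embryo, and 123 to 161 RPKM of exosc10.L.

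The silent copies of TYW3, TPR and ARL2BP had 1 recovered read or none. TYW3 acts in making wybutosine, a modified base beside the anticodon of a transfer RNA. Its copy tyw3.S had a value above 0 only in ventral lip 2, recovered as 1 read. The copy tyw3.L had 135, 161 and 167 RPKM in dorsal lips, 132, 157 and 162 RPKM in ventral lips and 127 RPKM in the whole embryo. TYW1, which forms the ringed base earlier in the same pathway, had its expressed copy on the other set. The copy tyw1.L was silent at a mean of 0.0992 RPKM and tyw1.S had a mean of 44.2 RPKM. The nuclear pore basket protein TPR had no read of LOC101731806.L in any library and 125 to 171 RPKM of LOC101731806.S. ARL2BP, which binds the small GTPase ARL2, had no read of arl2bp.S and 70.5 to 118 RPKM of arl2bp.L. A count of 0 in a library allows up to 3 reads, and this limit covers counting error only.

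The mitochondrial ribosomal protein gene mrpl44 had 1 read of mrpl44.L in all, in ventral lip 1, and 89.4 to 114 RPKM of mrpl44.S. For mnat1, whose product assembles the CDK-activating kinase, mnat1.S had 8 reads in all, 6 of them in dorsal lip 1, while mnat1.L had 87.9 to 129 RPKM. The glycogen-binding protein gene LOC100490725, matched to STBD1, had 3 reads of its S copy and 138 to 190.0 RPKM of its L copy. The phospholipase D family gene pld3 had 0.0227 to 0.0823 RPKM of pld3.S and 86.2 to 125 RPKM of pld3.L.

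The keratin gene krt spread most among the 12. Its silent copy krt.L had 0.167, 0.0813 and 0.102 RPKM in dorsal lips, 0.683, 0.187 and 0.480 RPKM in ventral lips and 0.719 RPKM in the whole embryo. Its expressed copy krt.S had 223, 69.3 and 92.7 RPKM in dorsal lips, 296, 96.9 and 115 RPKM in ventral lips and 222 RPKM in the whole embryo. In experiment 1 the expressed copy was above every lip of experiments 2 and 3. The 2 copies of krt also have different human matches, KRT19 for krt.L and KRT17 for krt.S, so they may not be the same gene on both sets.

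**Figure D2:**
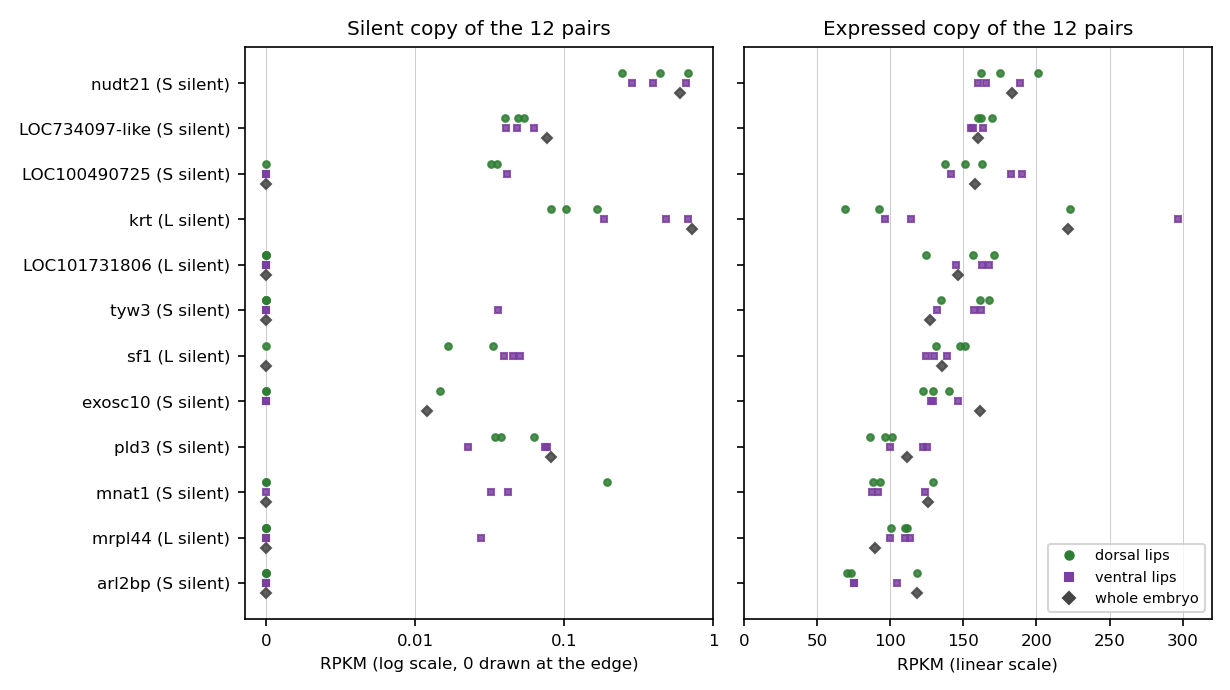
RPKM of the silent copy (left, log scale with 0 drawn at the edge) and of the expressed copy (right, linear scale) in each library for the 12 pairs with the highest expressed copy. Each point is 1 library. The silent copies stay at or below 0.719 RPKM in every library and the expressed copies at or above 69.3 RPKM.

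Grouped by textbook role, after the symbols were seen, the largest groups were metabolism, mitochondria, membrane traffic and mRNA processing. These roles were not counted in the other pairs with a copy of at least 10 RPKM. The sizes of the groups therefore do not show which functions are typical of genes with a silent copy. Nor do their L and S counts show a side typical of a role. The 15 mRNA processing genes had 7 silent L and 8 silent S copies and expressed copies with a median of 42.0 RPKM. Besides those above they include ythdc1, a reader of methylated adenosine in RNA (mean 0.204 RPKM of the S and 89.2 RPKM of the L copy), and crnkl1, a spliceosome subunit (0.245 RPKM of the L and 72.8 RPKM of the S copy). All 7 genes of ribosome biogenesis but rrp12 had a silent S copy, among them the helicase gene ddx54 at a mean of 0.111 RPKM of the S and 46.6 RPKM of the L copy. Of 6 genes for the modification of transfer RNA, 3 had a silent L and 3 a silent S copy.

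Among 9 genes of DNA replication, repair and division, 6 had a silent L copy. They include parp2, a sensor of DNA breaks (0.245 RPKM of the L and 62.9 RPKM of the S copy), and clspn, a checkpoint adaptor (0.0864 RPKM of the L and 22.3 RPKM of the S copy). For mcm5, a subunit of the replicative helicase, the S copy was the silent one at 0.229 to 0.443 RPKM, and mcm5.L lay between 32.2 and 41.4 RPKM. The 20 mitochondrial genes split evenly, with 10 silent L and 10 silent S copies. They range from vdac3, a channel of the outer membrane (0.0735 RPKM of the S and 41.3 RPKM of the L copy), to sdhc, a subunit of succinate dehydrogenase, with no read of the L copy and a mean of 17.5 RPKM of the S copy.

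In 25 genes of lipid, sugar and redox metabolism the S copy was silent in 17 and the L copy in 8. Examples are dgat2, which makes triglyceride (0.0162 RPKM of the S and 56.7 RPKM of the L copy), and cyp51a1, an enzyme of sterol synthesis (0.185 RPKM of the S and 16.1 RPKM of the L copy). The S copy was silent in 10 of 12 signalling genes, 7 of 8 transporter and channel genes, 9 of 11 genes of proteolysis and folding and 10 of 16 genes of membrane traffic. Over all 187 it was silent in 62.0%, and no difference of a group from that share was tested. The signalling genes include the BMP family ligand admp2, the Delta ligand dlc and the Wnt pathway scaffold amer1, all with a silent S copy. The 13 adhesion and cytoskeleton genes had 7 silent L and 6 silent S copies, and cdh1, a cadherin, had 12 reads of cdh1.L in all and a mean of 16.1 RPKM of cdh1.S. The 6 genes of transcription and chromatin had 2 silent L and 4 silent S copies, and 38 genes had another or no described role.

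Lists set by symbol prefix were counted over all pairs with a copy of at least 10 RPKM. None of 33 ribosomal protein, 26 translation factor, 21 histone and chromatin, 41 transcription factor and 22 BMP, Nodal, Wnt, FGF and Notch pairs was among the 187. The share over all such pairs was 7.75%. In the RNA processing list 7 of 59 pairs were (11.9%), with 2 silent L and 5 silent S copies. In the proteasome and ubiquitin list 2 of 54 were, ube2g2 and usp42, and in the mitochondrial list 2 of 55, mrpl44 and mrps10. Of 67 cell cycle and cytoskeleton pairs 4 were, krt, cdca9, myo1a and cdkal1, the last a transfer RNA modifier that entered by its prefix. The transporter list gave 3 of 45, slc2a2, slc44a1-like and atp13a4, and the adhesion and matrix list 1 of 10, cdh1. A prefix does not cover a function: the signalling genes admp2, dlc and amer1, the transcription factor gene rela (silent S copy) and others of the transcription and chromatin group carry none of the prefixes of these lists.

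The silent copies differed in how silent they were. Over all 7 libraries 39 had no read at all (16 L and 23 S copies), 43 had 1 to 10 reads, 79 had 11 to 100 and 26 had more than 100. The median was 13 reads and the highest 741. A read was found in every library for 76 of the 187 (40.6%), against 54.0% of all 44421 transcripts in the table. The silent copies were chosen for a mean below 0.5 RPKM in these same libraries, so the lower share is no separate result. Between 107 and 117 silent copies had a read in any 1 library, and 115 had at least 3 reads in some library.

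In a single library, 22 of the 187 silent copies reached 0.5 RPKM, 2 reached 1 RPKM and 0 reached 5 RPKM. The libraries of experiment 1 held most of these values, with 7 in the dorsal lip, 6 in the ventral lip and 8 in the whole embryo. In experiment 2 there were 2 in the dorsal and 1 in the ventral lip, and in experiment 3 there were 1 and 5. Experiment 1 also has more libraries than either other experiment. The same was not counted over all transcripts with a mean below 0.5 RPKM, so these counts do not show a trait of silent copies. Averaged within an experiment, 9 silent copies reached 0.5 RPKM, 6 in experiment 1, 1 in experiment 2 and 3 in experiment 3, with nudt21.S counted in both of the first experiments. The highest such mean was 1.02 RPKM, for amer1.S in experiment 1. In every library the expressed copy stayed above its silent partner in 187 of 187 pairs, which the limits of the rule largely fix.

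The clearest on and off pattern was that of amer1, which encodes a scaffold of the β-catenin destruction complex. Its silent copy amer1.S had 167 reads (0.721 RPKM) in the dorsal lip, 247 (1.06 RPKM) in the ventral lip and 327 (1.27 RPKM) in the whole embryo of experiment 1. It had no read in any of the 4 lips of experiments 2 and 3, where 3 reads would have been 0.0142 to 0.0167 RPKM. The mean of the lips of experiment 1, 0.889 RPKM, was at least 59.7-fold higher than the mean of those limits per library, 0.0149 RPKM. The expressed copy amer1.L had 13.6 and 17.2 RPKM in the dorsal and ventral lip of experiment 1 and 18.5 RPKM in its whole embryos. It had 27.2 and 27.6 RPKM in the dorsal and 29.1 and 25.3 RPKM in the ventral lips of experiments 2 and 3, so the groups did not overlap for either copy. For the expressed copy this is common. Both lips of experiment 1 lay below the 4 others for 45.5% of the 187 expressed copies and 48.2% of all tested transcripts. The silent copy made up 5.03%, 5.79% and 6.42% of the pair in the dorsal lip, the ventral lip and the whole embryo of experiment 1. At least 3 reads in each library of experiment 1 and none in the others were seen for amer1.S alone among the silent copies, and for 97 of all 44421 transcripts (0.218%). With the limit at 100 reads per library, amer1.S was 1 of 5 transcripts in the whole table (0.0113%). The limit of 100 reads was not set in advance, so this share is a description. Of the 44421 transcripts 9095 had no read in any of the libraries.

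The reverse pattern was seen for 1 silent copy, against 76 of all transcripts (0.171%). For pigk, a subunit of the complex that attaches GPI anchors, pigk.L had no read in the dorsal lip, the ventral lip or the whole embryo of experiment 1. In experiments 2 and 3 it had 3 and 7 reads in dorsal lips and 4 in each ventral lip, or 0.0488 to 0.115 RPKM. Its expressed copy pigk.S had 14.5 and 14.4 RPKM in the lips of experiment 1 and 8.68 to 9.96 RPKM in those of experiments 2 and 3. Both lips of experiment 1 lay above the others for 33.2% of the expressed copies as well, and for 27.1% of all tested transcripts.

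Other silent copies were highest in 1 library without being absent from the rest. For p2ry2, a receptor for extracellular nucleotides, p2ry2.S had 0.331, 0.100 and 0.0809 RPKM in dorsal lips, 1.02, 0.450 and 0.344 RPKM in ventral lips and 0.297 RPKM in the whole embryo. Each ventral value lay above every dorsal one, while p2ry2.L stayed between 29.6 and 39.5 RPKM throughout. The transcript cdca9.L, of a gene matched to the chromosomal passenger subunit CDCA8, had 20 reads (0.782 RPKM) in the whole embryo and 2 to 9 reads in the lips.

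For acbd6, which binds acyl-CoA, acbd6.L was highest in ventral lip 3 at 0.742 RPKM and had 8 to 16 reads in each other library. For synj2bp, an outer mitochondrial membrane protein, synj2bp.S was highest in dorsal lip 3 at 0.641 RPKM and lowest in ventral lip 1 at 0.122 RPKM. Each of these highest values rests on 19 reads.

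**Figure D3:**
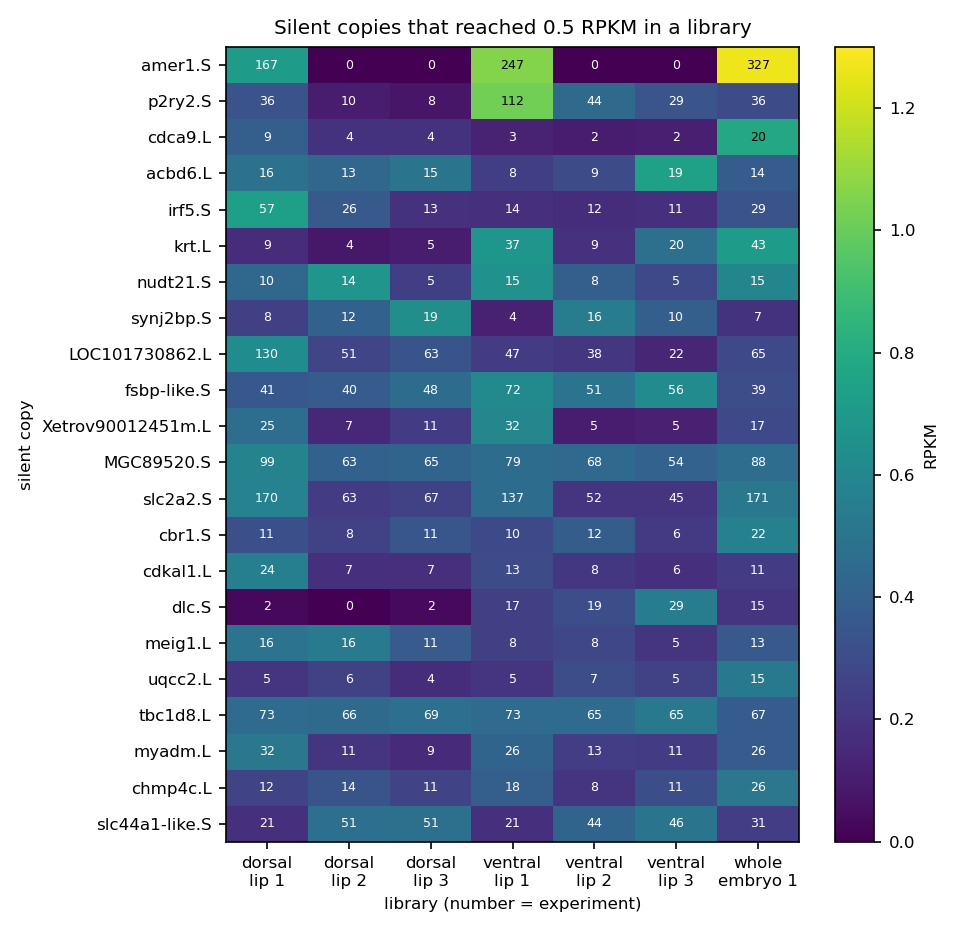
RPKM (colour) of the 22 silent copies that reached 0.5 RPKM in at least 1 library, with the number of reads printed in each cell, by library. The top row, amer1.S, has 167, 247 and 327 reads in the libraries of experiment 1 and 0 in the others.

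Silent copies were below the filter of the test between dorsal and ventral lips, and were tested in a fit without a filter. In it limma called 60 of 34738 transcripts (0.173%) and 0 of the 147 silent copies with a read in the lips, while 9 of these (6.12%) had an unadjusted p under 0.05, against 3.77% of all 34738. With the replicate block 0 were called as well. Both fits add 0.5 RPKM to every value, which is as large as the limit that chose the silent copies. This shrinks their fold changes, so the 0 calls cannot show that no silent copy differs between the sides. Without the block the smallest adjusted p belonged to dlc, a ligand of Notch, and with it to p2ry2.S (limma adjusted p = 0.110). Its silent copy dlc.S had 2, 0 and 2 reads in dorsal lips, 17, 19 and 29 reads in ventral lips and 15 in the whole embryo. The ventral lips were thus all higher, at 0.247, 0.310 and 0.548 RPKM against 0.0293, 0 and 0.0323 RPKM in dorsal lips (limma adjusted p = 0.258, with the replicate block 0.129). The expressed copy dlc.L overlapped between the sides but was the higher in the ventral lip of each experiment, with 24.1, 6.94 and 12.1 RPKM in dorsal lips, 66.5, 7.02 and 13.6 RPKM in ventral lips and 30.9 RPKM in the whole embryo. For cdh1 the silent copy had 2, 4 and 3 reads in dorsal lips, 0 in each ventral lip and 3 in the whole embryo, counts at the limit of detection. Of the 115 silent copies with at least 3 reads in a library, 9 had dorsal lips that all lay above the ventral ones and 8 the reverse (7.83% and 6.96%). Over all 10559 transcripts with a mean below 0.5 RPKM and such reads the shares were 6.11% and 3.51%.

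By recovered length, most silent copies that could be measured were shorter than their partners. Lengths were recovered from the RPKM steps for the 130 silent copies with reads in at least 3 libraries. They had a median of 1732.5 bp, against 2497 bp for their expressed partners, and the median of the ratio within a pair was 0.774. The silent copy was the shorter in 94 (72.3%) and had under 0.5 of the length of its partner in 34 (26.2%). In the 2227 other pairs the lower copy was the shorter in 40.5%, had under 0.5 of the length in 6.15%, and the median ratio was 1.06. The extremes were LOC101734605 (matched to REC114, ratio 0.105), synj2bp (0.148) and tyw1 (0.183) at the short end and smim20 (6.08), LOC101731919 (4.02) and mrps10 (3.16) at the long end. The silent copy of LOC101734605 had reads in experiments 2 and 3 only. A recovered length is the smallest that fits, so a silent copy with few reads can come out too short by a whole factor. How much this adds to the difference from the other pairs was not tested. Length also enters RPKM as its divisor, and the part of the gene models in the choice of the pairs was not tested.

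Lengths that are multiples of 3 bases, as a coding sequence without untranslated ends would have, were seen in 78 of the 130 silent copies and in 45 of their partners. In the other pairs the shares were 38.8% of the lower and 39.8% of the higher copies.

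A later annotation also named fewer of the silent copies. Of the 187 genes 137 have a symbol of their own, and that symbol with its L or S letter was looked up in the NCBI RefSeq gene table of assembly v10.1, used for names only. The silent copy had an entry in 68 (49.6%), all but 1 as protein coding and letmd1.S as another RNA, and the expressed copy in 126 (92.0%). Only the expressed copy was named in 59 (43.1%), among them nudt21, sf1, tyw3, exosc10 and mrpl44. In the other pairs 88.3% of the lower and 89.5% of the higher copies were named, and only the higher copy in 5.75%. Silent copies without an entry had a median length ratio of 0.596 over 44 pairs, and 18 of 69 had no read. Those with an entry had a median ratio of 0.918 over 56 pairs, and 7 of 68 had no read. Each set held 44 silent S copies, beside 25 silent L copies without an entry and 24 with one. An entry can be missing because a symbol changed between annotations, so these shares describe names and not whether a gene is present.

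**Figure D4:**
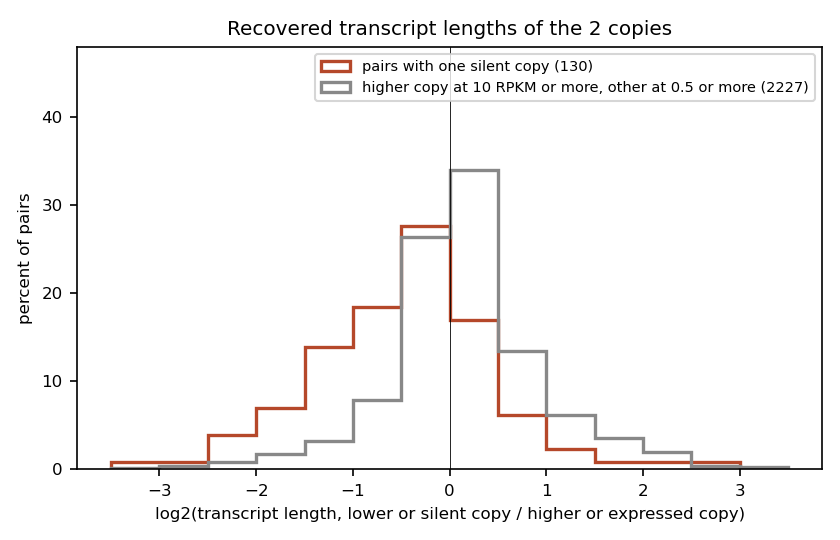
Distribution of the log2 ratio of transcript lengths between copies, in percent of pairs, for 130 pairs with one silent copy (silent over expressed) and 2227 other pairs with a copy of at least 10 RPKM (lower over higher). Values below 0 mean that the silent or lower copy is the shorter, which was so in 72.3% and 40.5% of the pairs. Ratios beyond the axis are drawn in the outermost bins.

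Most pairs carry the same human match on both copies, assigned by the authors through protein BLAST. The match was the same in 173 of 179 pairs with a match for both copies (96.6%), against 98.5% in the other pairs. Among the 6 that differ are krt, serp2, taf4b, LOC100124772 and LOC101732272. For LOC101732272 the names INTS11 and CPSF3L are a newer and an older symbol of a single gene. A further transcript with the same human match and at least 10 RPKM existed for 10 of the 187 (5.35%), against 4.63% of the other pairs. Among these were cdca8.L beside cdca9, calu.S beside rcn3, dll1.S beside dlc and admp.S beside admp2.

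Whether the expressed copies differed between the sides of the embryo was asked of all 187, since each passed the filter of 1 RPKM over the lips. The rule that chose the pairs also averaged these lips. A copy that differs between the sides can thus have met it only through the libraries where it is high. This limit holds for every fit below. In the fit without the replicate block, 1 gene was called. The ligand admp2.L, of the BMP family, had 2.35, 2.55 and 1.64 RPKM in dorsal lips, 14.9, 16.5 and 18.2 RPKM in ventral lips and 27.8 RPKM in the whole embryo. All 3 ventral values lay above all dorsal ones. Its log2 fold change, dorsal over ventral on log2(RPKM + 0.5), was -2.68 (SE 0.187, limma adjusted p = 0.00601). Over all genes 54 of 16514 transcripts were called (0.327%), 41 with more in dorsal lips (0.248%) and 13 with more in ventral lips (0.0787%). Of the higher copies in the 2227 other pairs 0.449% were called. The call was lost without ventral lip replicate 2 or without ventral lip replicate 3, at log2 fold changes of -2.68 and -2.61. The silent copy admp2.S had 5, 4 and 2 reads in dorsal, 4, 2 and 2 reads in ventral lips and 3 in the whole embryo. The authors' deposited ventral table lists admp2.L with a ratio of 8.28, ventral over dorsal.

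With the replicate number as a block, limma called 13 expressed copies (6.95% of the 187), against 4.71% of all 16514 transcripts and 6.06% of the other pairs. The dorsal lips had more of 5 of them and the ventral lips more of 8, where 2.37% and 2.34% of all transcripts were called in these directions. The largest dorsal excess was that of LOC101731538-like.S, matched to the acetyltransferase family gene NAT8B. It had 59.1, 19.9 and 22.9 RPKM in dorsal lips, 18.7, 1.13 and 2.52 RPKM in ventral lips and 30.2 RPKM in the whole embryo, and its silent copy had no read. Each experiment had the higher value in its dorsal lip. The log2 fold change was 2.74 (SE 0.369 and limma adjusted p = 0.0266 with the block). Without the block this and the other 4 dorsal calls were lost, with limma adjusted p = 0.999997. The fit without the block ignores which lips share an experiment and counts differences between experiments as error. A call lost there can therefore still have the same direction in each experiment.

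The membrane protein gene cmtm8-like.L followed with 70.8, 23.5 and 28.4 RPKM in dorsal lips, 31.3, 2.83 and 2.69 RPKM in ventral lips and 51.0 RPKM in the whole embryo (2.40, limma blocked adjusted p = 0.0396). The protease inhibitor gene a2m.S had 45.1, 10.5 and 13.8 RPKM in dorsal lips, 9.53, 2.24 and 3.23 RPKM in ventral lips and 26.8 RPKM in the whole embryo (2.04, limma blocked adjusted p = 0.000423). The other 2 were LOC101730334.L, matched to the alkaline phosphatase ALPL (1.22, limma blocked adjusted p = 0.0313), and MGC89520.L, matched to the magnesium transporter family gene NIPAL2 (1.11, limma blocked adjusted p = 0.0103). The authors' deposited dorsal table of 315 entries rests on experiments 2 and 3, whose lips are also in the fit used here. It lists these 5 expressed copies and no other of the 187, with ratios from 2.49 for MGC89520.L to 11.7 for LOC101731538-like.S. Their ventral table of 94 entries lists admp2.L alone of the 187, and none of the other ventral calls with the block. The fits with a lip left out had no block. Leaving out ventral lip 1 moved the log2 fold change to 3.78 for LOC101731538-like.S, 3.49 for cmtm8-like.L and 1.89 for LOC101730334.L. Without ventral lip 2 that of LOC101731538-like.S was 2.002, and without dorsal lip 1 that of a2m.S was 1.42.

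Apart from admp2.L, the ventral calls with the block were small, and without it they were lost (limma adjusted p = 0.939 for Xetrov90013833m.L and 0.999997 for the others). The glucose transporter gene slc2a2.L had 42.7, 18.1 and 23.5 RPKM in dorsal and 56.5, 27.2 and 30.7 RPKM in ventral lips, a log2 fold change of -0.45 (SE 0.0544, limma blocked adjusted p = 0.0189). The keratin copy krt.S changed by -0.40 (limma blocked adjusted p = 0.0147) and alg13.L, of a sugar transferase in protein glycosylation, by -0.39 (limma blocked adjusted p = 0.0362). Beside krt.S, the 6 epidermal marker transcripts summed to 13.6 to 25.3 RPKM in dorsal and 62.7 to 92.3 RPKM in ventral lips, with 5 of the 6 lower in every dorsal lip, and their part in the result was not tested. The other 4 were Xetrov90013833m.L (-0.37), matched to the ribonuclease RNASET2, cnksr1.L (-0.36), a scaffold of Ras signalling, pld3.L (-0.29) and tyro3.L (-0.28), a receptor tyrosine kinase. In fits without the block, leaving out the dorsal library of experiment 1 turned the change of cnksr1.L to 0.013. Leaving out the ventral one turned that of krt.S to 0.098, although krt.S was higher in the ventral lip of each experiment. Such a fit keeps the other lip of experiment 1 without its partner, so differences between experiments can enter the change.

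Among the 187 expressed copies, 4 had dorsal lips that all lay above the ventral ones and 10 the reverse, 14 in all. Over all tested transcripts 6.90% did not overlap, 3.09% with higher dorsal and 3.81% with higher ventral lips. The median log2 fold change was -0.050 for the 187 and -0.053 for all transcripts. An unadjusted p under 0.05 was found for 6 of the 187 without the block (3.21%) and for 49 with it (26.2%), against 3.12% and 26.3% of all transcripts.

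**Figure D5:**
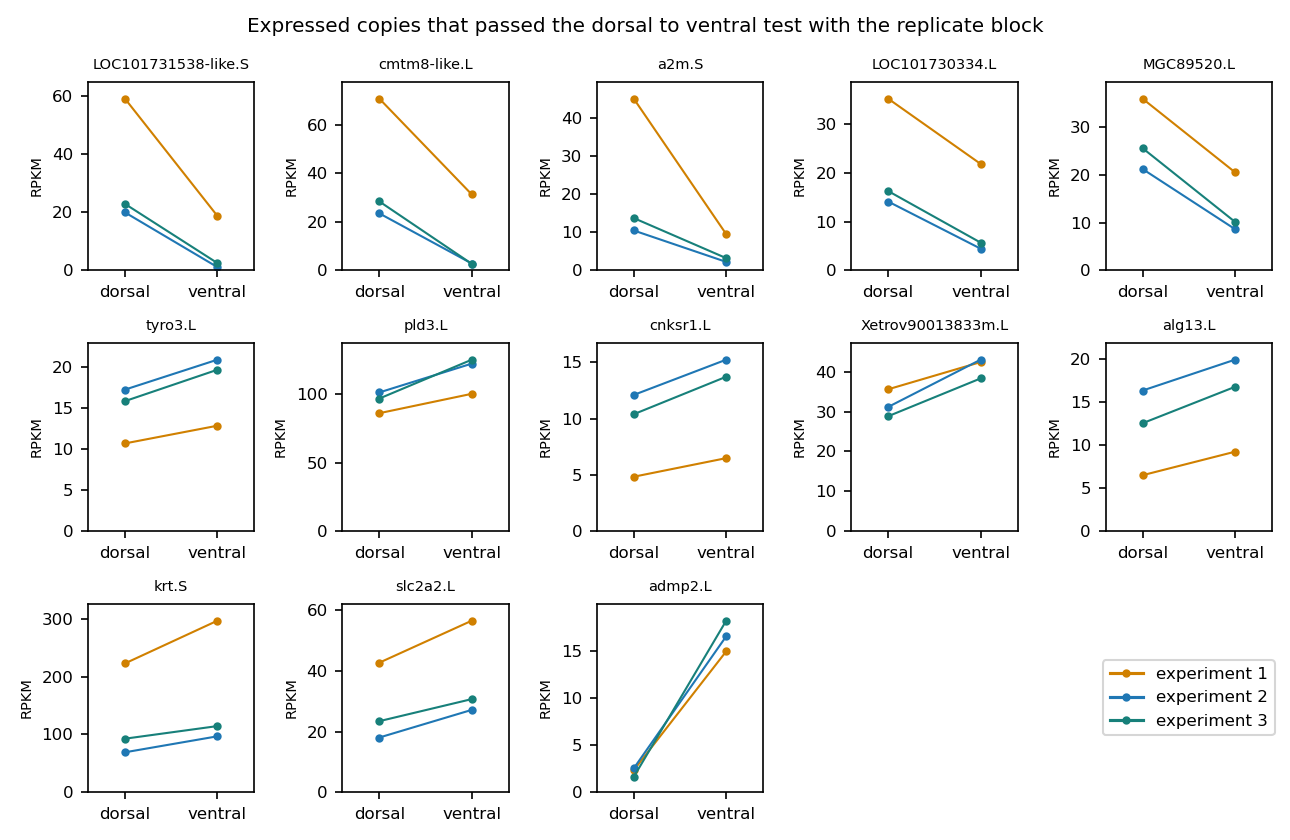
RPKM in dorsal (left) and ventral (right) lips of the 13 expressed copies that passed limma with the replicate block, 1 line per experiment, each panel from 0. In the top row the dorsal lip is the higher of each pair, and below it the ventral lip is. Experiment 1 stands apart in most panels, while the lines of admp2.L nearly coincide.

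Levels also differed between the experiments. In the lips of experiment 1, 13 of the 187 were at least 2-fold higher than in the lips of experiments 2 and 3 (6.95%) and 21 at least 2-fold lower (11.2%). Over all tested transcripts the shares were 6.06% higher and 17.2% lower, and among the higher copies of the other pairs 2.74% and 7.81%. Experiment 1 holds 1 library per side, so no test was made. For 62 expressed copies (33.2%) both lips of experiment 1 lay above all 4 others and for 85 (45.5%) below them, against 27.1% and 48.2% of all tested transcripts. At a limit of 3-fold the counts were 4 (2.14%) and 7 (3.74%), against 2.60% and 6.59%.

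The largest excess in experiment 1 was that of dlc.L, 24.1 and 66.5 RPKM in its dorsal and ventral lip, against 6.94 to 13.6 RPKM in the 4 others, a ratio of 4.57. Next were a2m.S (3.68), cmtm8-like.L (3.55), LOC101731538-like.S (3.35), LOC101730334.L (2.81) and krt.S (2.78). For a2m.S and LOC101731538-like.S only the dorsal lip of experiment 1 lay above all 4 others: the ventral one, at 9.53 and 18.7 RPKM, was below the dorsal lips of experiments 2 and 3. The cadherin copy cdh1.S had 23.1 and 26.8 RPKM in the dorsal and ventral lip of experiment 1 and 7.51 to 11.9 RPKM in the others.

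The largest deficit was that of cbr1.L, a carbonyl reductase, with 4.29 and 4.05 RPKM in the dorsal and ventral lip of experiment 1 and 21.7 to 22.8 RPKM in the 4 others, a ratio of 0.187. Its silent copy cbr1.S had 0.317 and 0.286 RPKM in the lips of experiment 1, within the range of 0.223 to 0.385 RPKM in the others. The gene patl2, known for its role in oocytes, had 4.12 RPKM of patl2.L in the dorsal lip of experiment 1, a mean of 4.66 RPKM over both of its lips, and 15.5 to 29.5 RPKM in the others. The acyl-CoA thioesterase copy acot12.L (ratio 0.248), meig1.S (0.277), velo1.L (0.278) and taf4b.S (0.318), matched to the TFIID subunit TAF4, were also lower.

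Lips and whole embryos were compared within experiment 1, where the sides are 1 library each. Of the 187 expressed copies 0 were at least 2-fold higher in the mean of the 2 lips than in the whole embryo and 2 were at least 2-fold lower. Over all tested transcripts the shares were 0.926% and 1.15%. The lower 2 were admp2.L, at 8.64 RPKM in the mean of the lips against 27.8 RPKM in the whole embryo, and velo1.L, at 9.89 against 27.1 RPKM. In the lips of experiments 2 and 3 velo1.L had a mean of 35.6 RPKM, above that whole embryo value, and admp2.L one of 9.72 RPKM. The transcript velo1 is known as an RNA localized to the vegetal cortex of the Xenopus oocyte, and its S copy had no read.

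Over the 7 libraries 139 expressed copies stayed at 10 RPKM or more and 175 at 5 RPKM or more, and the lowest single value was 1.13 RPKM, of LOC101731538-like.S in ventral lip 2. The highest library was less than 2-fold above the lowest in 141 of the 187 and more than 4-fold above it in 14.

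At the limits of the rule, aldh5a1 (10.002 RPKM of the expressed copy), lrp4 (10.1 RPKM) and sord (10.2 RPKM) lay just inside that of 10 RPKM. Just outside it were mrpl41 (9.96 RPKM), LOC101734377 (9.95 RPKM) and b3gnt4 (9.95 RPKM). At the limit of 0.5 RPKM, nudt21 (0.470 RPKM of the silent copy), fsbp-like (0.464 RPKM) and MGC89520 (0.456 RPKM) lay inside. Just outside were ccdc109b (0.510 RPKM), fut1 (0.510 RPKM) and LOC100487963 (0.520 RPKM).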

How the data were processed

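The authors deposited RPKM per transcript for 44421 transcripts in 7 libraries. Per the submitters' processing notes the tools were TopHat2 2.09 and DESeq, whose roles are not stated. Per the file headers the gene models are JGI 9.1 and human symbols come from protein BLAST. No source used here gives the counter, the strand setting or the treatment of reads shared by transcripts. The adjusted p-value deposited by the authors was not used. The ratio in the authors' deposited tables of dorsal, ventral and injury transcripts and the score in their tables of correlations were used only where named. In the injury table the ratio divides a lip of experiment 1 by its whole embryos, per the file headers.

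The transcript levels were averaged over the 7 libraries, and a pair was taken as the identifiers with the same base and an L or S ending. The pairs, role groups and lists were chosen with earlier results of these data known. Whole reads, lengths and mapped totals were recovered from the RPKM steps for all 35326 transcripts above 0, within 1e-05 reads. A length, and the reads recovered with it, can be smaller than the true number by a whole factor where few libraries have reads. Lengths of silent copies were thus used only with reads in 3 or more libraries, which makes this error rarer but does not exclude it. Read numbers were used for all, as lower bounds where few libraries have reads.

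Dorsal and ventral lips were compared with limma 3.58.1 in R 4.3.3 (trend, two-sided) on log2(RPKM + 0.5), keeping transcripts whose mean over the 6 lips reached 1 RPKM, with Benjamini-Hochberg adjustment over all 16514 and a threshold of 0.05. The value added to RPKM makes fold changes of low transcripts smaller. The fit without the block recovered known changes on simulated data. Those data held no difference between experiments, so the check does not cover such differences. The deviations of lips with the same number had correlations of 0.926, 0.881 and 0.819. Every pair passed 0.1, and blocked values stand beside results they change. Dorsal lip 2 with ventral lip 3 had 0.839, and dorsal lip 3 with ventral lip 2 had 0.748, near the values for equal numbers. Number 1 with any other number gave between -0.898 and -0.813. The correlations thus set experiment 1 apart but cannot decide the pairing within experiments 2 and 3, which rests on the file headers. Ratios between experiments and to the whole embryo have no test.

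Genes named are the 12 with the highest expressed copy, silent copies highest in 1 library, calls between sides, pairs at the limits and at the ends of the length ratio, and members of the lists. Genes named for on and off patterns, for the role groups and for the ratios between experiments were chosen after their values were seen. One pair that the rule names is not reported here. Other settings of the rule and the fit, and leaving out each library, were tried. No genome or sequence was used. Python 3 with pandas was used for the tables.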

Additional observations from a re-analysis of the deposited data

How the results depend on the processing

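With an expressed limit of 5 RPKM there were 361 pairs with a silent copy (144 L and 217 S), with 20 RPKM 93 (32 and 61). In pairs with both copies named in RefSeq, a setting added after seeing the data, there were 67 (23 and 44). Under the other 15 settings of the rule, including each library left out, the count lay between 159 and 251, and the S share lay between 60.1% and 65.7% under all 18. Of the silent copies, 22 reached 0.5 RPKM in a library, 2 reached 1 RPKM, 0 reached 5 RPKM and 115 had at least 3 reads.

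The calls between dorsal and ventral lips numbered 1 (0 dorsal and 1 ventral), and 13 (5 and 8) with the replicate block. Among settings added after seeing the data, experiments 2 and 3 alone gave 9 (6 and 3; 4.81% of the 187, against 4.18% of all transcripts). Voom weights with the block gave 21 (6 and 15; 11.2%, against 9.94%). Leaving out 1 lip library, without the block, gave 0 to 1. Other pseudocounts, filters and scalings and voom without the block gave 1. The block changed no other call reported here. The fits with a lip left out had no block, so a difference between experiments can enter their changes. Whether the blocked calls hold with a lip left out was not tested. Among the 13 called copies the sign reversed for cnksr1.L (0.013 without dorsal lip replicate 1) and krt.S (0.098 without ventral lip replicate 1). The cause was not tested. With 1 lip left out, the log2 fold change lay between -0.729 and 0.013 for cnksr1.L and between -0.888 and 0.098 for krt.S. It lay between -0.701 and -0.026 for alg13.L, -0.488 and -0.074 for tyro3.L and -0.797 and -0.134 for slc2a2.L.

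With added limits, 4 expressed copies were at least 3-fold higher and 7 at least 3-fold lower in experiment 1, and 6 were at least 1.5-fold lower in lips than in the whole embryo (3.21%, against 4.68% of all transcripts). Depth limits the silent copies: with 0 to 3 reads in a library, presence and absence differ by counting error.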

Other observations

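The authors' deposited table of correlations to chordin, taken over a wider set of RNA sequencing samples not analysed here, lists a coefficient for 23 of the 39 silent copies without a read and for all silent copies with one. Over the whole table it lists one for 5172 of 9095 transcripts at 0 in the 7 libraries.

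The authors' deposited table of injury transcripts, 744 entries above 2-fold in both lips of experiment 1 over its whole embryos, holds 2 silent and 0 expressed copies. The deposited data hold 44421 transcripts in all, and no excess or deficit against that background was tested. Both silent copies had few reads in experiment 1, so their ratios carry a large counting error. For dpy19l4-like.L the authors' ratios are 2.31 (dorsal) and 6.73 (ventral), on 2 and 6 recovered reads against 1 in the whole embryo. For akr7a2.S, of an aldo-keto reductase, the authors' deposited ratios are 2.54 and 2.69, on 11 and 12 reads against 5. In experiments 2 and 3 akr7a2.S had 7 and 6 reads in dorsal and 15 and 11 in ventral lips.

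In the RefSeq table of assembly v10.1 the expressed copies daw1.S and mrpl44.S are neighbours, and the silent copy of both is L. No silent copies named there were neighbours of each other, among the 67 that were placed.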
